A study of Mus musculus with 20 samples.

Results

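A set of 9 genes that mark lipid-associated macrophages was followed in visceral adipose tissue (VAT): *Trem2*, *Tyrobp*, *Gpnmb*, *Spp1*, *Cd9*, *Fabp5*, *Lgals3*, *Itgax* and *Cd63*. They were chosen by name, with earlier results of these data known, and read from every spot of the array that is not a control and carries one of these 9 gene names, of 37074 gene names in all. The names correspond to 13 of the 56605 distinct probes, and 12 of the 13 were bright enough to be tested. Each gene is represented below by its brightest tested probe, which was well above background on all 20 arrays for each of the 9 genes, so no gene entered through 1 group alone.

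The samples were epididymal VAT of 20 male F3 C57bl/6J mice, with 1 array per mouse. The Ref group (n = 6) and the HFoleic group (n = 6) came from a lineage bred for 3 generations on a diet with 1% of high-oleic sunflower oil, and the HFepa group (n = 8) from a lineage given 1% of fish oil rich in eicosapentaenoic acid (EPA). For 17 weeks the HFoleic and HFepa mice then ate a high-fat, high-sucrose diet with 45% of its energy from fat, whereas the Ref mice were given a reference diet with 10%. No EPA lineage was fed the reference diet, so HFepa and Ref mice differ both in lineage and in diet, and the age of the mice was not given in the sources used here. The 20 mice were those left after a filter on RNA integrity, and nothing in those sources says whether mice of a group shared a litter or a cage.

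Lipid-associated macrophages are macrophages of obese fat that gather around dying adipocytes and take up their lipid. TREM2 is a lipid-sensing receptor on their surface, which has no signalling tail of its own and passes its signal through the adaptor DAP12, encoded by *Tyrobp*. In mice without TREM2 the lipid-handling state of these macrophages is largely lost. The other 7 genes encode membrane glycoproteins, secreted ligands, lipid carriers and tetraspanins that are abundant in the same cells. Several of them are not restricted to macrophages, since *Fabp5*, *Cd63* and *Cd9* are also made by adipocytes and stromal cells.

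All 9 genes had their lowest mean in the Ref group, a middle mean in the HFepa group and their highest mean in the HFoleic group. In HFoleic vs. Ref, 8 of the 9 rose, all but *Cd63*, from 1.83-fold for *Cd9* to 29.7-fold for *Gpnmb*. In HFepa vs. Ref only *Fabp5* passed the test, and in HFepa vs. HFoleic none did. Inside the HFepa group the mice were far apart, with mice 1 and 6 at or above the lowest HFoleic mouse for all 9 genes and mouse 5 at or below the highest Ref mouse for all 9.

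Levels are log2 median spot intensities after quantile normalization over the arrays, in arbitrary units, so a step of 1 is a factor of 2 in intensity and the level of one probe says nothing about that of another. Fold changes come from a limma model with 1 mean per group fitted to all 20 arrays. Adjusted p is the Benjamini–Hochberg value over all 39390 tested probes, with a threshold of 0.05. The adipocyte markers *Adipoq*, *Plin1*, *Lep*, *Cidec*, *Pnpla2* and *Lipe* were well above background on all 20 arrays, with a mean level between 15.00 and 15.44 in every mouse. Single markers were not constant. In HFoleic vs. Ref, 1 of the 6 was higher and 2 were lower at that threshold, against 15.2% and 16.7% of all genes. Their log2 fold changes ran from -1.185 to 1.125. On each array 66.06% to 71.88% of spots stood well above background, with no saturated spot. No library was left out, and the labels give a single wash batch for all samples.

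**Figure D1:**
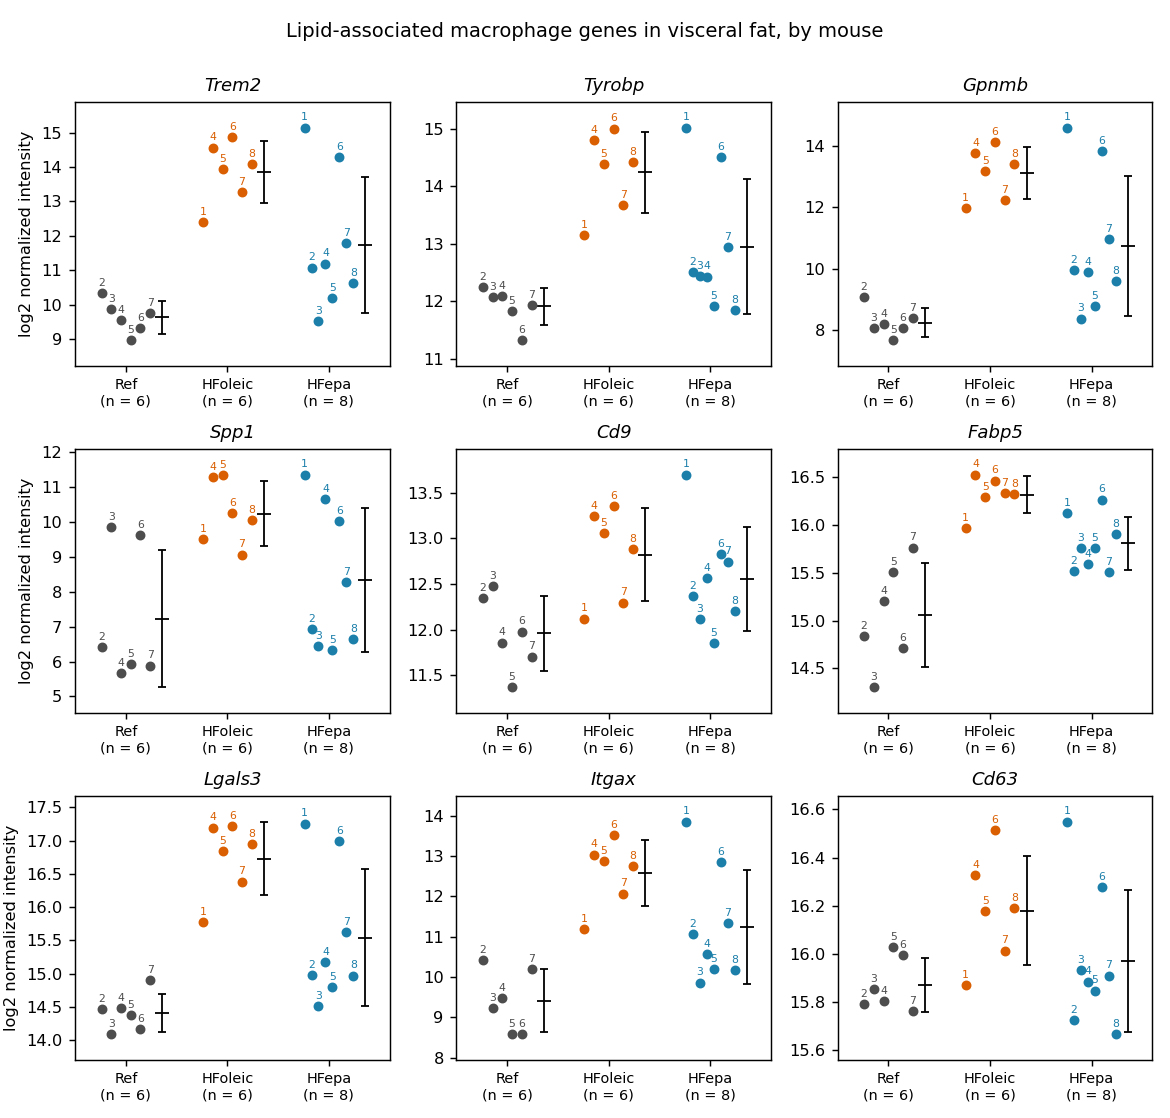
Level of each of the 9 genes in each mouse (log2 normalized intensity, 1 panel per gene with its own axis, 20 mice in all). Points are mice, numbered by replicate, and the black mark is the group mean with its SD. In 8 panels HFepa mouse 1 is the highest HFepa mouse, and for *Trem2*, *Gpnmb* and *Lgals3* 6 of the 8 HFepa mice lie below every HFoleic mouse.

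The probes that carry the result for the receptor pathway can be read on the array itself. The *Tyrobp* probe and 1 of the *Lgals3* probes lie across an intron, since their ends are 1728 and 817 bases apart in the genome while the probes are 60 bases long, and they are shown because they can only match spliced RNA along their whole length. The *Tyrobp* probe covers chr7:31200651-31202378 and the *Lgals3* probe chr14:48004398-48005214, both in mm9, the build of the file headers. Their sequences, 5′ to 3′, follow in lower case.
Tyrobp: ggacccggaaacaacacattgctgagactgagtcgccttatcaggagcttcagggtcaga
Lgals3: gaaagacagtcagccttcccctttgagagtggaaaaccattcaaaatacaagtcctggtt

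*Trem2* encodes the receptor itself and is read by a probe at chr17:48491537-48491596 (mm9). Its level was 8.97 in the lowest, 9.66 in the median and 10.33 in the highest Ref mouse. The HFoleic mice ranged from 12.39 to 14.87 with a median of 14.02, and the HFepa mice from 9.53 to 15.15 with a median of 11.14. All 6 HFoleic mice were above all 6 Ref mice, whereas the HFepa mice ran from within the Ref range to above the highest HFoleic mouse. The difference in HFoleic vs. Ref was 4.22 ± 0.74 on the log2 scale (SE, 18.7-fold, adjusted p = 0.00067 by limma). The gap between HFepa and Ref was 2.10 ± 0.69, which did not pass (adjusted p = 0.10 by limma).

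*Tyrobp*, the adaptor, was read by the probe printed above. The Ref mice had levels from 11.32 to 12.25 (median 12) and the HFoleic mice from 13.15 to 15.00 (median 14.40). The HFepa mice ranged from 11.84 to 15.02 with a median of 12.47. The Ref and HFoleic mice did not overlap, and 6 of the 8 HFepa mice were above every Ref mouse, though mostly by a small step. The rise in HFoleic vs. Ref was 2.33 ± 0.46 (SE, 5.01-fold, adjusted p = 0.00138 by limma). In HFepa vs. Ref it was 1.04 ± 0.43, which did not pass (adjusted p = 0.181 by limma).

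*Gpnmb*, a membrane glycoprotein of lysosome-rich macrophages, had the largest change of the 9. Its probe at chr6:49006386-49006445 (mm9) read 7.66 to 9.07 in the Ref mice (median 8.12) and 11.97 to 14.13 in the HFoleic mice (median 13.31). In the HFepa mice it read 8.36 to 14.61 with a median of 9.92. The gap between the highest Ref and the lowest HFoleic mouse was wider than the spread of either group. The log2 difference was 4.89 ± 0.84 (SE, 29.7-fold, adjusted p = 0.000585 by limma), which ranked 3 of the 25618 genes tested. In HFepa vs. Ref it was 2.52 ± 0.78, again at rank 3, with an adjusted p of 0.0843 by limma.

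*Spp1* encodes osteopontin, a secreted ligand of integrins and of CD44. It was the least even of the genes. In the Ref group 4 mice read 5.67 to 6.40, but mice 3 and 6 read 9.85 and 9.62, within the range of the HFoleic mice (9.06 to 11.32, median 10.14). In the HFepa group mice 1, 4 and 6 read 11.34, 10.64 and 10.02, mouse 7 read 8.28, and the other 4 read 6.32 to 6.92. The Ref and HFoleic groups therefore overlapped, and the rise of 3.01 ± 0.95 (SE, 8.05-fold, adjusted p = 0.0203 by limma) had the widest interval of the 9, from 1.04 to 4.98. Within slides, the HFepa vs. Ref difference of *Spp1* was -0.02 on slide 1, 3.29 on slide 2 and -0.28 on slide 3, so its sign was not the same on the 3 slides. Each slide held 2 Ref mice, and Ref mouse 3 was on slide 1 and Ref mouse 6 on slide 3.

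*Spp1* moved with the markers of epithelium and of epididymis and testis in some of the mice. Ref mice 3 and 6 had the highest epithelial level of their group (10.42 and 11.05, others 6.17 to 8.72) and the highest epididymis and testis level (9.16 and 9.26, others 6.92 to 7.79). HFoleic mouse 5, with the highest *Spp1* of its group (11.32), stood at 10.26 and 9.92 for the same lists, and HFepa mouse 4 at 10.47 and 9.23. The match was not complete, since HFoleic mouse 4 and HFepa mice 1 and 6 were high in *Spp1* (11.26, 11.34 and 10.02) with epithelial levels of 5.77, 6.83 and 7.02. Without Ref mice 3 and 6, HFoleic mouse 5 and HFepa mouse 4, the 4 mice with an epididymis and testis level above 9, an alternative added after the data were seen, the rise of *Spp1* in HFoleic vs. Ref was 4.05 ± 0.87 (SE, adjusted p = 0.0147 by limma) and the difference in HFepa vs. Ref was 2.03 ± 0.81 (adjusted p = 0.27 by limma). In that fit 7 of the 9 genes were called higher in HFoleic vs. Ref, all but *Cd9* and *Cd63*, against 8.19% of all genes. It called 0 of the 9 in HFepa vs. Ref and in HFepa vs. HFoleic, and 0% of all genes.

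*Lgals3* encodes galectin-3, a lectin that binds sugar chains on cell surfaces and on damaged lysosomes. Its brighter probe, at chr14:48005414-48005473 (mm9), read 14.09 to 14.91 in the Ref mice (median 14.42), 15.78 to 17.22 in the HFoleic mice (median 16.89) and 14.51 to 17.26 in the HFepa mice (median 15.07). The HFoleic mice were all above the Ref mice. The rise was 2.31 ± 0.40 (SE, 4.97-fold, adjusted p = 0.00061 by limma). The probe across the intron, printed above and present in 10 spots per array, gave 2.48 ± 0.48 (adjusted p = 0.00118 by limma), so both probes of the gene rose.

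*Itgax* encodes CD11c, the integrin alpha chain used to sort inflammatory macrophages and dendritic cells. Its brightest probe read 8.58 to 10.42 in the Ref mice (median 9.35), 11.20 to 13.52 in the HFoleic mice (median 12.81) and 9.86 to 13.86 in the HFepa mice (median 10.82). No Ref mouse reached an HFoleic mouse, and 5 of the 8 HFepa mice were above every Ref mouse. The rise in HFoleic vs. Ref was 3.16 ± 0.59 (SE, 8.95-fold, adjusted p = 0.000936 by limma). The 2 dimmer probes of the gene were near background. One was not well above background in any Ref mouse and was so in 5 of 6 HFoleic mice, which gives a level at least 1.45-fold higher in HFoleic mice against the lowest signal well above background (measured means 5.91 and 5.05, adjusted p = 0.00251 by limma). The other, well above background in 1 of 6 Ref mice, did not pass the test (0.43 ± 0.31, adjusted p = 0.311 by limma), so the probes of *Itgax* disagree in size.

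*Fabp5*, a fatty acid carrier of macrophages and adipocytes, was called against the Ref group in HFoleic as well as in HFepa mice, as no other of the 9 genes was. It read 14.30 to 15.77 in the Ref mice (median 15.02), 15.97 to 16.53 in the HFoleic mice (median 16.33) and 15.51 to 16.27 in the HFepa mice (median 15.76). Unlike the genes above, its Ref mice were more spread (SD 0.541) than its HFepa mice (SD 0.279). The rise was 1.26 ± 0.20 in HFoleic vs. Ref (SE, 2.40-fold, adjusted p = 0.000426 by limma) and 0.75 ± 0.18 in HFepa vs. Ref (1.68-fold, adjusted p = 0.0385 by limma). The HFepa and Ref mice still overlapped, since 3 of the 8 HFepa mice were above all Ref mice. The HFepa call was close to the threshold and was lost in 8 of the 20 fits with 1 mouse left out, among them Ref mouse 6 (0.68, adjusted p = 0.101 by limma) and HFepa mouse 6 (0.68, adjusted p = 0.0853).

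*Cd9* and *Cd63* encode tetraspanins, which organize patches of the plasma membrane and of late endosomes. *Cd9* read 11.37 to 12.48 in the Ref mice (median 11.92), 12.12 to 13.35 in the HFoleic mice (median 12.97) and 11.85 to 13.70 in the HFepa mice (median 12.46). The groups overlapped, and the rise of 0.87 ± 0.27 in HFoleic vs. Ref passed (SE, 1.83-fold, adjusted p = 0.0207 by limma). It was no longer past the threshold without Ref mouse 5 (adjusted p = 0.0526), HFoleic mouse 4 (0.0525) or HFoleic mouse 6 (0.0545, all by limma). A further *Cd9* probe, 34637 bases away and listed in the opposite orientation, was not well above background on any array. *Cd63* read 15.76 to 16.03 in the Ref mice, 15.87 to 16.52 in the HFoleic mice and 15.67 to 16.55 in the HFepa mice. Its difference of 0.31 ± 0.13 in HFoleic vs. Ref missed the threshold (SE, 1.24-fold, adjusted p = 0.0767 by limma), with an interval from 0.04 to 0.58, and passed without HFoleic mouse 1 (0.37, adjusted p = 0.0354) or without HFepa mouse 1 (0.31, adjusted p = 0.0296).

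**Figure D2:**
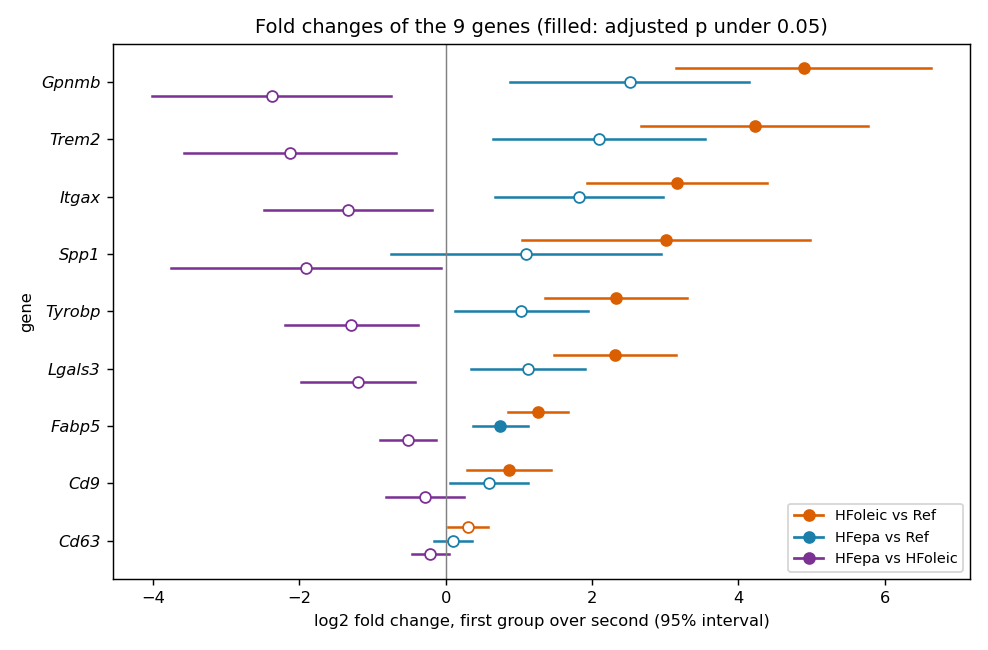
Log2 fold change of each of the 9 genes in the 3 comparisons, with the 95% interval of the limma fit (orange HFoleic vs. Ref, blue HFepa vs. Ref, purple HFepa vs. HFoleic; filled points have an adjusted p under 0.05). The blue points lie between the purple and the orange ones for every gene, and among the blue and purple points *Fabp5* in HFepa vs. Ref is the single filled one.

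Taking the genes as a list, 8 of 9 rose in HFoleic vs. Ref, against 15.2% of all 25618 genes that were called higher and 31.8% that were called in either direction. The 9 were chosen with earlier results of these data known, so such shares describe them and are no independent test. The HFoleic and Ref mice did not overlap for 6 of the 9, with HFoleic higher, against 6.92% of all genes. The median log2 fold change of the 9 was 2.33, beside -0.04 over all genes. Within the 3 slides, the differences of *Trem2*, *Gpnmb*, *Itgax*, *Lgals3* and *Tyrobp* were all positive and above 2, with *Gpnmb* at 4.61, 5.78 and 4.60. These rest on few mice, with 2 Ref mice on each slide and 3, 1 and 2 HFoleic mice on slides 1, 2 and 3. In these bulk samples a change in the number of macrophages and a change in the RNA of each macrophage cannot be told apart.

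In HFepa vs. Ref, 1 of 9 genes was called, against 1.03% of all genes called higher and 2.46% in either direction. All 9 differences were positive, with a median of 1.1 beside -0.02 over all genes, and 7 had an unadjusted p under 0.05, against 10% of all genes that were higher at that p. None of the 9 had HFepa mice wholly above the Ref mice, which 0.371% of all genes did. Both comparisons with the Ref group share the same 6 Ref mice, and the third shares its mice with both of them. Leaving out HFepa mouse 3 brought the count of genes called higher to 5 (*Trem2*, *Gpnmb*, *Fabp5*, *Lgals3* and *Itgax*, against 3.41% of all genes in that fit), whereas leaving out HFepa mouse 1 brought it to 0.

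In HFepa vs. HFoleic, 0 of 9 genes were called by limma, and 0 of all 25618 genes by their brightest probe (0% called). All 9 differences were negative, with a median of -1.29 beside 0.01 over all genes. At an unadjusted p under 0.05, 7 of the 9 were lower in HFepa mice, against 10% of all genes. The intervals of the difference were wide, from -4.01 to -0.74 for *Gpnmb* and from -3.57 to -0.68 for *Trem2*, with adjusted p of 0.132 and 0.131 by limma. For *Cd9* and *Cd63* the intervals, -0.81 to 0.26 and -0.46 to 0.04, included 0. The outcome depended on single mice and on their weight in the fit. HFepa mouse 1 was the highest HFepa mouse for 8 of the 9 genes, so leaving it out lowers their HFepa means. Without it 5 genes were called lower (*Trem2*, *Tyrobp*, *Gpnmb*, *Lgals3* and *Itgax*, against 4.62% of all genes), with *Gpnmb* at -2.93 (adjusted p = 0.0271 by limma). Without HFoleic mouse 1, 1 gene was called (*Lgals3*, -1.38, adjusted p = 0.0484 by limma), in a fit that called 1663 of all 39390 probes. With array weights, which give less weight to arrays far from their group, 6 genes were called lower, the same 5 and *Fabp5*, against 6.69% of all genes.

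The HFepa group was the most spread for 8 of the 9 genes, all but *Fabp5*, with an SD of 1.98 for *Trem2* against 0.473 in Ref and 0.905 in HFoleic mice, and of 2.29 for *Gpnmb* against 0.471 and 0.857. Mouse 1 was above the highest HFoleic mouse for 8 genes and mouse 6 was above the lowest for all 9. Mouse 5 lay within or below the Ref range for 9 genes and mouse 3 for 8. The other 4 were in between, with mouse 7 above all Ref mice for 6 genes, mouse 4 for 7, mouse 2 for 5 and mouse 8 for 4. In the HFoleic group mouse 1 was the lowest mouse for 8 genes, and mouse 6 the highest for 7. HFepa mice 1 and 6 were on different slides.

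**Figure D3:**
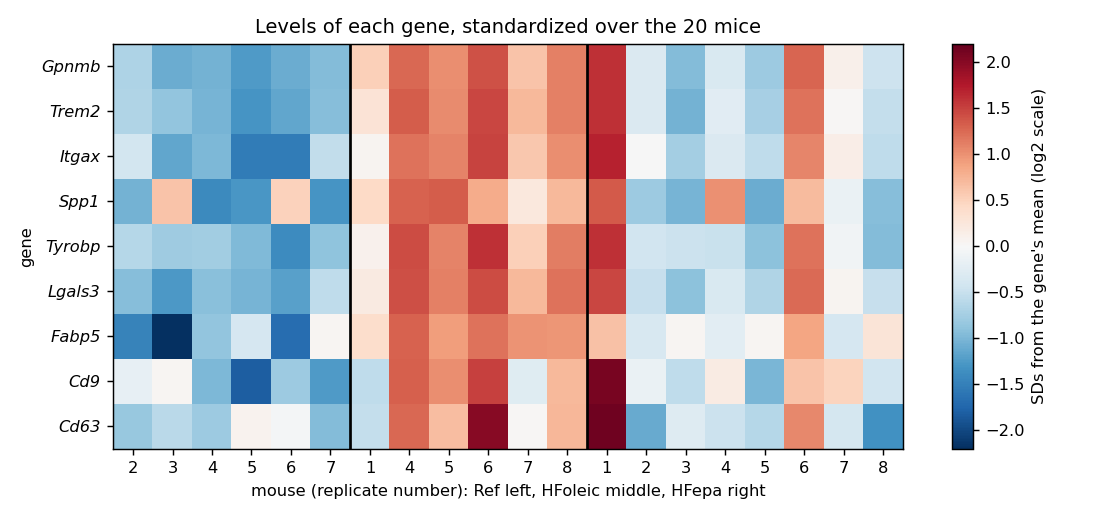
Level of each gene in each mouse as SDs from the gene's mean over the 20 mice (rows are genes ordered by their change in HFoleic vs. Ref, columns are mice by group and replicate number, red above and blue below the mean). The columns of HFepa mice 1 and 6 are red for all 9 genes, and the *Spp1* row is red in Ref mice 3 and 6.

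The mice that were high for one gene were mostly high for the others. Over the 20 mice, the level of *Trem2* correlated with the mean standardized level of the other 8 genes at r = 0.987, and *Gpnmb*, *Lgals3* and *Tyrobp* did so at 0.982, 0.98 and 0.979. *Spp1* and *Fabp5* were the loosest, at 0.738 and 0.721. After the group means were taken off, *Trem2* kept an r of 0.972, whereas *Spp1* had 0.546 and *Fabp5* 0.321. These values describe 20 arrays that share the 3 groups and the same normalization, and carry no test.

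Of the other genes tested, those closest to the mean standardized level of the 9 over the 20 mice were *Ctsk* (r = 0.994), *AF251705* (0.993), *Lat2* (0.993), *Myo1f*, *Hk3*, *Gas2l3* and *Arhgap25* (each 0.991), and *Slamf8*, *Prkcd* and *Anpep* (each 0.990). *Ctsk* encodes cathepsin K, a lysosomal protease of osteoclasts and macrophages, and *Lat2* an adaptor of myeloid receptors. Their r stayed at 0.986 or more without HFepa mouse 1 and HFoleic mouse 6, the 2 mice farthest from the median. Within groups the closest were *Prkcd* (0.991), *Ctsk* (0.990), *Lat2* (0.988), *Gas2l3* (0.987) and *AF251705* (0.986). An r above 0.9 was reached by 772 of 25593 genes over all mice and by 406 within groups, beside medians of -0.12 and -0.07.

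Genes around TREM2 signalling were described next, from lists of the ligands, partners and relatives of the 9 genes. In the list of TREM2 ligands, adaptors and signalling genes, 12 of 16 rose in HFoleic vs. Ref and 2 fell, against 15.2% and 16.7% of all genes. *Vav3*, an exchange factor downstream of immune receptors, rose from 9.93 ± 0.13 in Ref to 10.74 ± 0.27 in HFoleic mice (SD, n = 6 each, adjusted p = 0.000658 by limma). It was also the single gene of any of the 5 lists called in HFepa vs. Ref, where all 8 HFepa mice were above all 6 Ref mice (0.58 ± 0.13, SE, adjusted p = 0.0304 by limma). Over all genes 2.46% were called in HFepa vs. Ref, and 0.371% had HFepa mice wholly above the Ref mice. A single call over the 5 lists says nothing of them as a group. In HFepa vs. Ref the TREM2 list had 0 calls without Ref mouse 3, 4, 5 or 6 or without HFepa mouse 6. It had 2 without HFepa mouse 3, in a fit that called 2513 of all 39390 probes. *Syk*, the kinase that docks on phosphorylated DAP12, rose by 1.48 ± 0.30 (SE, adjusted p = 0.00139 by limma). The 2 genes that fell were *Cblb*, a ubiquitin ligase that restrains immune receptor signalling (-0.48 ± 0.10, adjusted p = 0.00129 by limma), and *Apoe*, a lipoprotein that TREM2 binds and that adipocytes also make (-0.38 ± 0.11, adjusted p = 0.015 by limma).

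Among 23 lipid and lysosome genes of lipid-associated macrophages, 17 rose in HFoleic vs. Ref, against 15.2% of all genes, and none fell at the threshold, with a median of 0.88. *Mmp12*, the macrophage elastase, went from 7.03 ± 1.16 in Ref to 12.27 ± 0.80 in HFoleic mice (SD, n = 6 each), a rise of 37.7-fold (adjusted p = 0.000677 by limma). In HFepa mice *Mmp12* stood at 9.91 ± 2.41 (SD, n = 8). *Atp6v0d2*, a subunit of the proton pump that acidifies lysosomes, rose 25.2-fold (adjusted p = 0.000495 by limma), and *Ctss*, the lysosomal protease cathepsin S, rose 8.19-fold (adjusted p = 0.000726 by limma). In HFepa vs. Ref limma called 0 of the 23, with 13 at an unadjusted p under 0.05 against 21.6% of all genes in either direction. In HFepa vs. HFoleic it called 0, with 15 at such a p against 20.8% of all genes. Without HFepa mouse 1, 14 of the 23 were called in HFepa vs. HFoleic, in a fit that called 2867 of all 39390 probes.

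Of 18 receptors and binding partners of the member proteins, 10 rose and 3 fell in HFoleic vs. Ref, against 15.2% and 16.7% of all genes, so the count that fell is no more than that of genes at large. *Cd44*, a receptor of osteopontin, rose 5.04-fold (adjusted p = 0.000983 by limma). *Timp1*, a protease inhibitor that binds CD63, rose 3.70-fold (adjusted p = 0.000644 by limma), and *Mgat5*, the enzyme that builds the branched sugar chains galectin-3 prefers, rose 1.96-fold (adjusted p = 0.000579 by limma). The genes that fell were *Sdc4*, *Icam1* and *Ppard*, by 0.80, 0.37 and 0.37 on the log2 scale (adjusted p = 0.0129, 0.0102 and 0.0156 by limma). *Itgb2*, the beta chain that pairs with CD11c, rose 6.37-fold (adjusted p = 0.00147 by limma) and was named after its value was seen.

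Relatives of the 9 genes were described in the same way. Of 18 tested family members (of 19 on the list), 5 rose and 1 fell in HFoleic vs. Ref, with a median of 0.19. The 6 calls of 18 are near the 31.8% of all genes called in either direction and say nothing of the relatives as a group. *Treml4*, a relative of *Trem2*, rose by 1.09 ± 0.16 and *Cd53*, a tetraspanin of leukocytes, by 2.10 ± 0.41 (SE, adjusted p = 0.000375 and 0.00128 by limma). *Lgals12*, a galectin of adipocytes, fell by 0.85 on the log2 scale (adjusted p = 0.00125 by limma). Of 19 transcription factors of macrophage lipid and lysosome programmes, 6 rose, 1 fell and 12 were not called, again near the 31.8% of all genes called. *Atf3*, a stress-induced factor, rose 7.69-fold (adjusted p = 0.00122 by limma). *Irf8* and *Runx1*, factors of the myeloid lineage, rose by 1.26 ± 0.25 and 1.07 ± 0.24 (SE, adjusted p = 0.00136 and 0.00272 by limma). The liver X receptor gene *Nr1h2* fell by 0.16 (adjusted p = 0.0259 by limma). The MiT/TFE factors *Mitf*, *Tfeb*, *Tfe3* and *Tfec*, activators of lysosomal genes, had differences of 0.31, -0.17, 0.12 and 0.44, with adjusted p from 0.128 to 0.387 by limma. In HFepa vs. Ref and in HFepa vs. HFoleic none of the family members or factors was called, with 5 and 6 at an unadjusted p under 0.05 in each comparison. Of all genes 21.6% in HFepa vs. Ref and 20.8% in HFepa vs. HFoleic had such a p.

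Markers of macrophages and of other cells moved with the 9 genes, and their part in the result was not tested. The 10 pan-macrophage markers (*Adgre1*, *Cd68*, *Csf1r*, *Cd14*, *Mertk*, *Fcgr1*, *C1qa*, *C1qb*, *C1qc* and *Ptprc*) were well above background on all 20 arrays. Their mean level ranged from 10.65 to 11.13 in Ref, from 11.39 to 12.49 in HFoleic and from 10.51 to 12.42 in HFepa mice. Of the 10, 7 rose in HFoleic vs. Ref and none fell at the threshold, *Cd68* the most at 2.41 (also in the lipid and lysosome list) and *Adgre1*, a surface receptor of mature macrophages, at 2.27 (adjusted p = 0.00158 and 0.0011 by limma). Over all genes 15.2% were called higher and 16.7% lower. The 3 not called were *Cd14*, *Mertk* and *Ptprc*, at 11.19, 9.62 and 11.47 in Ref and 10.9, 9.53 and 11.66 in HFoleic mice. HFepa mice 1 and 6, the highest for the 9 genes, were also the highest HFepa mice for the mean of the 10 markers, at 12.42 and 12.09. Markers of resident macrophages went both ways in HFoleic vs. Ref, with *Folr2* (0.92) and *Mrc1* (0.76) called higher and *Cd163* (-0.54) lower among 7 (adjusted p = 0.0165, 0.00335 and 0.0239 by limma). These counts, too, stand beside 15.2% of all genes called higher and 16.7% lower. The mean level of the resident markers was 10.83 ± 0.30 in Ref, 10.95 ± 0.17 in HFoleic and 10.73 ± 0.26 in HFepa mice (SD).

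The other lists that differed by more than 0.4 between HFoleic and Ref mice were those of osteoclasts (0.67), dendritic cells (0.55), monocytes (0.54), and progenitors and fibroblasts (0.46) on the higher side, and mesothelium (-0.42), epididymis and testis (-0.44) and epithelium (-1.17) on the lower side. Against 15.2% of all genes called higher and 16.7% lower, 4 of 6 dendritic cell markers rose (*Flt3*, *Clec9a*, *Ccr7* and *Batf3*) and 1 fell (*Zbtb46*). Dendritic cells also express *Itgax*. In the osteoclast list 2 of 5 rose, in the monocyte list 2 of 5, and in the progenitor and fibroblast list 2 of 6, with none lower. The epithelial markers varied widely inside every group, from 6.17 to 11.05 in Ref, 5.77 to 10.26 in HFoleic and 6.30 to 10.47 in HFepa mice, and 0 of 5 were called. Of 8 markers of epididymis and testis, *Defb2* was not well above background on any array and *Lcn5*, *Lcn8* and *Crisp1* on at most 3, while *Rnase10*, *Prm1*, *Prm2* and *Tnp1* were so on 17 or more. T cell markers differed by -0.08.

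**Figure D4:**
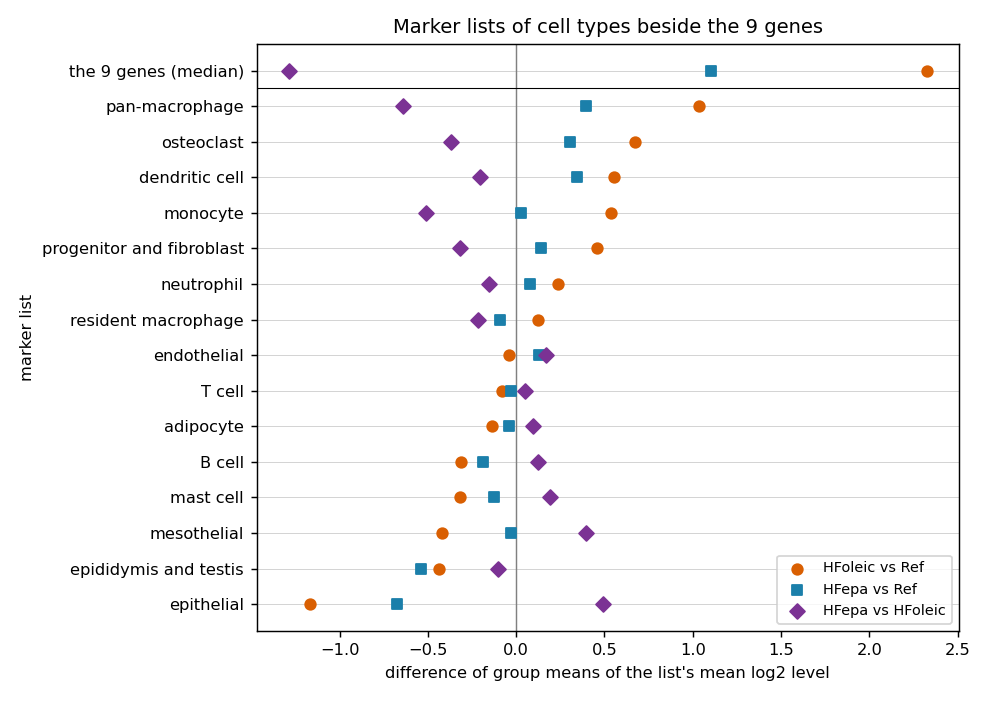
Difference between group means of the mean log2 level of each of 15 marker lists, with the median log2 fold change of the 9 genes in the top row (circles HFoleic vs. Ref, squares HFepa vs. Ref, diamonds HFepa vs. HFoleic; no error is drawn). The pan-macrophage list has the largest differences on the positive side in HFoleic vs. Ref, at 1.04, beside 2.33 for the 9 genes.

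To set the 9 genes against the macrophage markers of the same mouse, the mean level of the 10 pan-macrophage markers was taken off every probe, an alternative added after the data were seen. All genes then fell by a median of 1.08 on the log2 scale in HFoleic vs. Ref, since the markers had risen. On that scale 6 of the 9 were still higher in HFoleic mice, against 0.910% of all genes: *Gpnmb* at 3.85, *Trem2* at 3.18, *Itgax* at 2.13, *Spp1* at 1.97, *Tyrobp* at 1.29 and *Lgals3* at 1.28 (adjusted p from 9.47e-05 to 0.00853 by limma). *Fabp5* (0.23, adjusted p = 0.43) and *Cd9* (-0.17, adjusted p = 0.504) were not called, and *Cd63* was lower (-0.73, adjusted p = 0.0054), as 90.9% of all genes were. In HFepa vs. HFoleic, where all genes rose by a median of 0.66 on this scale, *Trem2* (-1.48), *Tyrobp* (-0.65) and *Gpnmb* (-1.73) were called lower (adjusted p = 0.0423, 0.0427 and 0.0423 by limma), against 0.230% of all genes, while *Cd9*, *Fabp5* and *Cd63* changed sign. The shift of all genes also changes the adjustment, so these calls cannot be set against those of the fit as measured. The unadjusted p of *Tyrobp* was larger here (0.0154) than as measured (0.00759, adjusted p = 0.134, all by limma). For *Trem2* and *Gpnmb* it was smaller (0.00155 and 0.00134, against 0.0062 and 0.00663 as measured, by limma). The 10 markers moved unevenly in HFoleic vs. Ref, from -0.29 to 2.41, and 3 were not called. As measured, *Tyrobp* (2.33) and *Lgals3* (2.31) rose no more than the marker *Cd68* (2.41). A rise on this scale is therefore one over the mean of the markers and not over each of them. The markers themselves are not all restricted to macrophages, and their mean is not a count of cells.

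**Figure D5:**
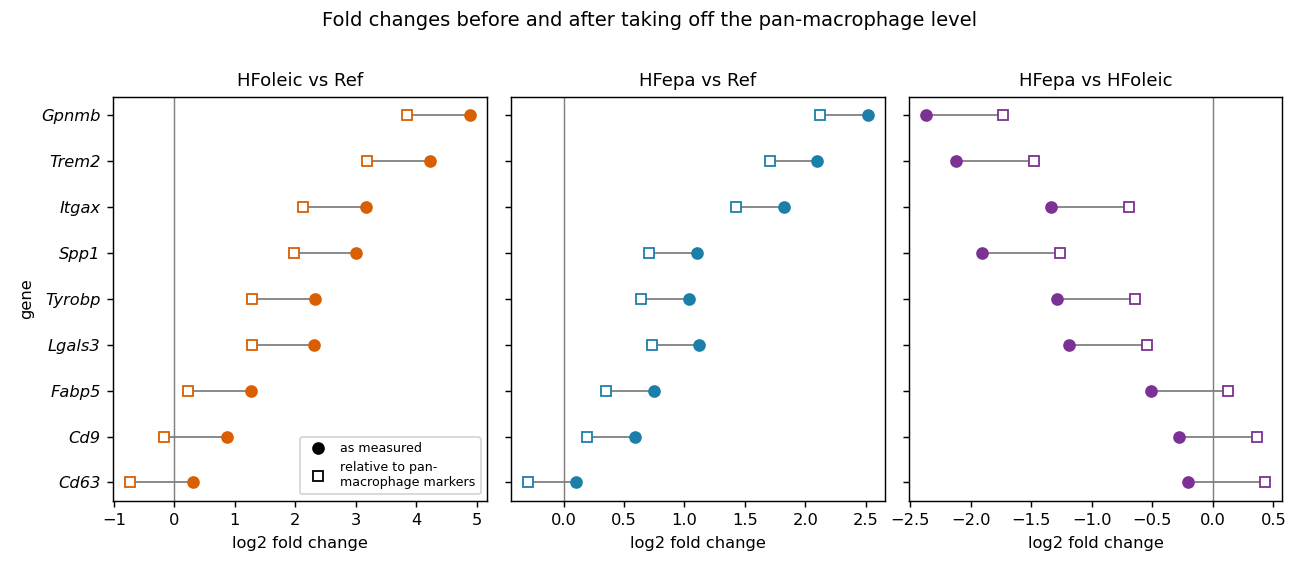
Log2 fold change of each gene as measured (filled circles) and relative to the mean of the 10 pan-macrophage markers of the same mouse (open squares), 1 panel per comparison, each with its own axis. In HFoleic vs. Ref 7 squares remain above 0, with *Cd9* and *Cd63* below it.

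Since most of the 9 moved together, the bases upstream of their starts were searched for motifs of factors known in macrophages. The RefSeq table of promoters (GRCm38.p6) holds a window for 7 of the 9 genes, 8 windows in all since *Spp1* has 2 starts, and *Tyrobp* and *Fabp5* were not matched. In the 250 bases before each start, both strands were searched for CACGTG (the E-box of MiT/TFE factors), CATGTG (the M-box core), TGANTCA (a loose form of the AP-1 site, with any base at N) and GAGGAA (the core bound by PU.1). CACGTG was in none of the 8 windows, against 6.02% of the 32851 windows of the table. CATGTG was in 1 (*Cd9*, against 12.3%), TGANTCA in 2 (*Trem2* and *Itgax*, against 6.75%) and GAGGAA in 3 (*Trem2*, *Spp1* and *Cd63*, against 23.3%). A match of letters is a description and does not show that a factor binds there.

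The windows of the 3 genes with the largest rise and of *Cd63*, the gene with the smallest, are printed below, 5′ to 3′ on the strand of the gene and ending at the base before the start, with motif matches in capitals. In *Trem2*, the match of the loose AP-1 pattern reads TGAATCA and begins 9 bases before the start, and the PU.1 match begins 40 bases before it. In *Itgax* the match of that AP-1 pattern reads TGAGTCA and begins 56 bases before the start. *Gpnmb*, with the largest rise, has no match, and *Cd63* has 2 matches of the PU.1 core. The windows are chr6:49036268-49036517 for *Gpnmb*, chr17:48346151-48346400 for *Trem2*, chr7:128129300-128129549 for *Itgax* and chr10:128909095-128909344 for *Cd63*, all on the plus strand of GRCm38.p6.
Gpnmb: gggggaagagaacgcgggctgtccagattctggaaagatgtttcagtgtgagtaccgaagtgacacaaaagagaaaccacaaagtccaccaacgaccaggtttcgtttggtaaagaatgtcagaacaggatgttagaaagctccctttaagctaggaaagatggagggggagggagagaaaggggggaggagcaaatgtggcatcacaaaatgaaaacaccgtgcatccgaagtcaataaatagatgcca
Trem2: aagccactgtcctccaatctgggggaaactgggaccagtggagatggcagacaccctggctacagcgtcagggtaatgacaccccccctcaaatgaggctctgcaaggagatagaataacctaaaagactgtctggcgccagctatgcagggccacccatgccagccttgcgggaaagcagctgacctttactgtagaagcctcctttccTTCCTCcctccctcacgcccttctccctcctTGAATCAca
Itgax: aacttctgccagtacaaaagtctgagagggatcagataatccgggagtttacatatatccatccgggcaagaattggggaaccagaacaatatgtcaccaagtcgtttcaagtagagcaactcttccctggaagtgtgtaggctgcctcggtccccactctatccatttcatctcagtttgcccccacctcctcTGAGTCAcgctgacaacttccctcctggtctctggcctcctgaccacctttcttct
Cd63: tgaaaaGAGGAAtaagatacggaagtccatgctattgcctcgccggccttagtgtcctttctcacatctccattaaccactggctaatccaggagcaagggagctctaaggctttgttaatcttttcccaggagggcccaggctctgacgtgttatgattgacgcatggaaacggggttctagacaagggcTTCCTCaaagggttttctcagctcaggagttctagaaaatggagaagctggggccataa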

How the data were processed

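Total RNA of epididymal VAT was hybridized to 1-colour Agilent SurePrint G3 mouse arrays, 1 array per mouse, spread over 3 slides. Per the file headers, the deposited spot intensity values came from Feature Extraction 10.10.1.1 with probes placed on mm9. The quantile-normalized log2 values that the authors deposited for 38168 probes were used as an alternative. Groups were taken from the sample labels. The members and the gene and marker lists were chosen with earlier results of these data known.

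Here control spots were dropped and spots marked as outliers were set missing. Probes had to exceed background clearly, by the scanner software's call, on 6 or more arrays. The log2 median signal was quantile-normalized, spots of a probe were averaged, and limma 3.58.1 in R 4.3.3 fitted 1 mean per group with empirical Bayes moderation and Benjamini–Hochberg adjustment at 0.05 over 39390 probes. A gene was its brightest tested probe. No batch term entered the fit. The p-values measure the spread between mice, and their number (6, 6 and 8) limits the precision.

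All 9 members were named, together with the 3 genes of each related list with the smallest p in HFoleic vs. Ref, those called in the other comparisons, and the genes closest to the members' mean (10 over all mice and 5 within groups). Other genes that fell in a list, single markers of cell types, the MiT/TFE factors and *Itgb2* were named after their values were seen. Same-numbered mice of different groups did not deviate together. Alternatives covered the signal, background correction, normalization, filters, probes of a gene, slide, replicate number, array weights, samples in the fit and each mouse left out, with the level of macrophage markers and the mice high in epididymis and testis markers added after the data were seen. The limma fit was tested on simulated data. Figures were drawn with matplotlib 3.10.9 in Python 3.11.15.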

Additional observations from a re-analysis of the deposited data

How the results depend on the processing

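The median log2 fold change of the 9 genes moved by more than the spread between mice under 1 alternative, levels relative to the pan-macrophage markers in HFoleic vs. Ref (1.29 in place of 2.33), and by less under the others run for it, ranging from 2.22 to 2.54 in HFoleic vs. Ref, 0.74 to 1.27 in HFepa vs. Ref and -1.59 to -1.13 in HFepa vs. HFoleic with 1 mouse left out. With 1 mouse left out, the count of the 9 genes called ran from 7 to 9, from 0 to 5 and from 0 to 5 in these comparisons. For HFepa vs. Ref the counts ran from 0 to 2 in the TREM2 list, 0 to 3 in the lipid and lysosome list and 0 to 5 among receptors and partners. For HFepa vs. HFoleic they ran from 0 to 8 in the TREM2 list, 0 to 14 in the lipid and lysosome list, 0 to 6 among receptors and partners, 0 to 5 among family members and 0 to 5 among factors, each highest without HFepa mouse 1. The calls over all 39390 probes rose as well. Without HFepa mouse 1 they were 2867 in HFepa vs. HFoleic, against 1 with all mice. Without HFepa mouse 3, where the HFepa vs. Ref counts were highest, they were 2513, against 892 with all mice. The *Fabp5* call in HFepa vs. Ref, and with it the count of 1, became 0 with the processed signal scaled to the 75th percentile (adjusted p = 0.058), median centring (0.0669), no filter on dim probes (0.0504) and the compared groups alone in the fit (0.0914, all by limma), where the TREM2 list also had 0. Receptors and partners had 1 call in HFepa vs. Ref with normexp correction or the authors' table and 2 with array weights. With array weights HFepa vs. HFoleic gave 6 calls among the 9 genes, 9 in the TREM2 list, 14 in the lipid and lysosome list, 7 among receptors and partners, 5 among family members and 5 among factors. With slide as a block each of the 5 lists had 1 call in HFepa vs. HFoleic. Of all 39390 probes, array weights called 4575 in that comparison and slide as a block 1297. The causes were not tested.

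Replicate numbers did not pair the mice: the correlation of deviations ran from -0.587 to 0.559 over 16 same-numbered pairs, with 5 above 0.1, and 2 of 20 arrays were nearest to an array of their own number. With the replicate number as a block, 6 of the 9 genes were called in HFoleic vs. Ref, without *Spp1* (adjusted p = 0.0766 by limma) and *Cd9* (0.079). In that fit the TREM2 list had 9 calls in HFoleic vs. Ref in place of 14, and in HFepa vs. Ref the 9 genes and the TREM2 list had 0. It called 7873 of all 39390 probes in HFoleic vs. Ref, in place of 12147, and 25 in HFepa vs. Ref.

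Signs turned for *Spp1* in HFepa vs. Ref within slide 1 (-0.023) and slide 3 (-0.28), the slides of Ref mice 3 and 6. Relative to the pan-macrophage markers, signs turned for *Cd9* (-0.17) and *Cd63* (-0.73) in HFoleic vs. Ref, *Cd63* (-0.29) in HFepa vs. Ref, and *Cd9* (0.36), *Fabp5* (0.13) and *Cd63* (0.43) in HFepa vs. HFoleic. Without the 4 mice high in epididymis and testis markers, the 9 genes had 0 calls in HFepa vs. Ref, and *Cd9* in HFoleic vs. Ref no longer passed (adjusted p = 0.0599 by limma). The scale relative to the pan-macrophage markers gave 0 calls among the 9 genes in HFepa vs. Ref and 3 in HFepa vs. HFoleic. All genes shift on that scale, which changes the adjustment, so its calls cannot be set against those of the fit as measured. *Cd63* passed in HFoleic vs. Ref with array weights (adjusted p = 0.0081) and with the compared groups alone (0.0305, both by limma). The dimmer *Itgax* and *Cd9* probes are limited by their signal over background.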
